A study of Mus musculus with 18 samples.

Results

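Interferon gamma inducible GTPases are proteins of innate defence that bind and cut GTP and gather on membranes around microbes inside cells. They form 2 families, the immunity-related GTPases (IRG) and the guanylate binding proteins (GBP). The expression of 10 of their genes was followed here with age in splenic neutrophils of mice that develop lupus. The genes were chosen by symbol: the IRG genes Irgm1, Irgm2, Igtp, Ifi47 and Iigp1, and the GBP genes Gbp2, Gbp3, Gbp5, Gbp7 and Gbp9. Of these 10 symbols 9 had a row among the 17941 genes of the table and 8 had enough counts to be tested. Gbp5 was too low for the test, and Iigp1 was not analysed here.

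Gene expression was measured by RNA sequencing in neutrophils sorted from spleens of untreated female mice of the NZBWF1/J strain. The sorting gate took live singlets with Ly6G, Ly6b and CD11b on their surface and an intermediate level of Ly6C. This hybrid strain spontaneously develops a disease like lupus as it ages. By the labels the groups differ in age alone, 14, 20 or 26 weeks, which the design describes as stages of the disease. Each age has 6 biological replicates with 1 library each, and the labels do not say whether a replicate was 1 mouse or a pool. No strain without disease is among the groups, so stage of disease and age as such cannot be told apart. The labels name no batch, so a batch that followed age could not be told apart from it either.

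Interferon gamma reaches cells through a receptor of 2 chains, encoded by Ifngr1 and Ifngr2. The kinases Jak1 and Jak2 on those chains pass the signal to the nucleus, where GTPase genes are turned on, in part through the transcription factor Irf1. The gamma activated sequence (GAS) and the interferon stimulated response element (ISRE), which interferon regulatory factors such as Irf1 bind, are the DNA motifs through which such genes respond. Within the IRG family, Irgm1, Irgm2 and Igtp (also called Irgm3) are regulators that sit on the cell's own membranes and hold the effector GTPases inactive, and Ifi47 (also called Irgd) is counted among the effectors. The proteins of Gbp2 and Gbp5 carry a lipid anchor at their end. Gbp7 has been tied to assembly of the NADPH oxidase on phagosomes, and Gbp5 to the NLRP3 inflammasome.

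RefSeq promoters, 250 bases before and 50 bases after each transcript start (GRCm38.p6), were found for 8 of the genes. No promoter was found there for Gbp9. Both motifs were searched on both strands, the ISRE core as GAAA, any 2 bases and GAAA, and GAS as TTC, any 3 bases and GAA. An ISRE core match lay in 7 of the 9 promoters of these genes, in 7 of the 8 genes. Of the 32851 mouse promoters in the same table, 3.44% held one. GAS matches lay in 4 of the 9 promoters, in 4 of the 8 genes, against 8.3% of all promoters. Such a match is a run of letters and not a measured binding site. Ifi47 had neither in its window, which says only that these letters are not there. The stretches around the ISRE matches are shown because they are what the members share that their choice by name did not use. Capitals mark ISRE and GAS matches that lie whole inside a stretch. ISRE and GAS matches overlap each other in none of these stretches, while the 2 ISRE matches of Gbp3 and of Irgm1 each overlap. Another GAS match of Gbp7, 106 to 98 bases before the start, is cut by the edge of its stretch and stays in lower case.
Irgm2 (chr11:58214887-58214937, plus strand): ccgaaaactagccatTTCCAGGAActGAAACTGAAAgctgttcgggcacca
Igtp (chr11:58199496-58199546, plus strand): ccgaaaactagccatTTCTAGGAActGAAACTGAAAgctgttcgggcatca
Irgm1 (chr11:48871421-48871465, minus strand): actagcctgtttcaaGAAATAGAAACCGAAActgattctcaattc
Gbp2 (chr3:142620589-142620628, plus strand): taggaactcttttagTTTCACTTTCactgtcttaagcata
Gbp3 (chr3:142559984-142560029, plus strand): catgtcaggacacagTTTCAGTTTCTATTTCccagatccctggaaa
Gbp5 (chr3:142496754-142496793, plus strand): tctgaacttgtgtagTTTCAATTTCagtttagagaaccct
Gbp7 (chr3:142530234-142530307, plus strand): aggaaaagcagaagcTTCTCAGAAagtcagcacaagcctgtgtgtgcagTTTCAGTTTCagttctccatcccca

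In Irgm2 and Igtp the GAS match and the ISRE match stood side by side in nearly the same letters. Aligned locally, the promoters of these neighbouring genes were 91.1% identical over 271 columns. In the GBP genes the ISRE match lay on the strand opposite to that of transcription, and in the IRG genes on the same strand.

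**Figure D1:**
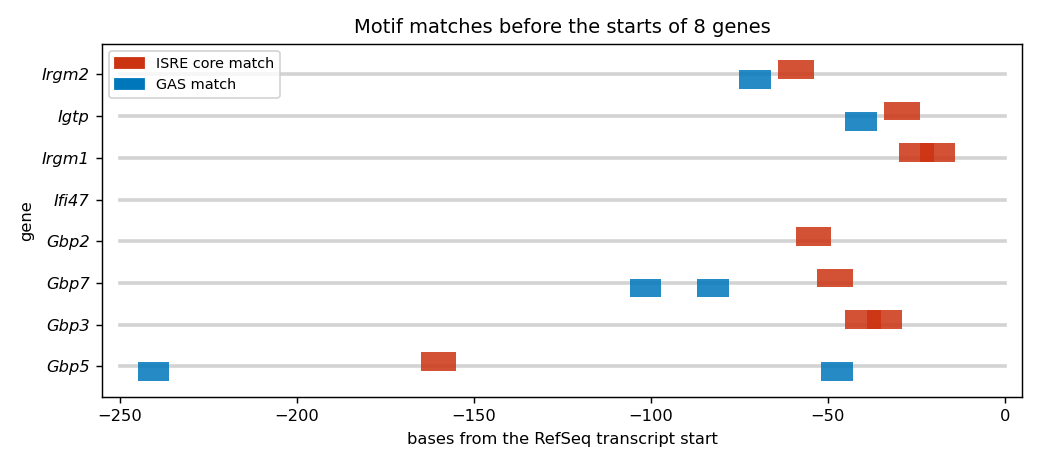
Positions of motif matches in the 250 bases before the RefSeq start of 8 genes, with distance from the start in bases on the horizontal axis and 1 row per gene. Red boxes are ISRE core matches and blue boxes GAS matches; the ISRE matches of Irgm2, Igtp, Irgm1, Gbp2, Gbp7 and Gbp3 begin 64 to 24 bases before the start and that of Gbp5 165 bases before it.

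Libraries held 5546624 to 17256379 counts. Levels are given in CPM, counts relative to the TMM-scaled total of the library, and p-values are from edgeR's quasi-likelihood test, adjusted over all 10104 genes tested. The 10 neutrophil markers had counts at every age. Their summed levels ran from 57600 to 71400, 24200 to 41000 and 47100 to 164000 CPM at 14, 20 and 26 weeks. Every library of 20 weeks thus lay below every library of the other ages. Replicate 3 of 20 weeks stood apart, with counts in 8119 genes, where the other 17 libraries had counts in 10357 or more. Its median correlation with libraries of its age was 0.756 across genes. It is kept in every value below unless stated, and the members that rest on it are given with and without it.

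The abundance of the 9 members differed widely. Per kilobase of exon, the highest mean level over 18 libraries was that of Igtp, at 28.6 CPM per kb, followed by Gbp2 at 23. Irgm2 and Ifi47 came next, at 12.5 and 12.4 CPM per kb. Irgm1 had 7.62, Gbp9 4.32, Gbp7 2.9 and Gbp3 1.07 CPM per kb, and Gbp5 was lowest at 0.0748. Of the 9 genes, 6 had their highest mean at 20 weeks (Irgm1, Irgm2, Igtp, Gbp3, Gbp5 and Gbp9), 2 at 26 weeks (Gbp2 and Ifi47) and 1 at 14 weeks (Gbp7). Of all genes tested, 33.6% had their highest mean at 20 weeks.

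Irgm2, a regulator of the Golgi and neighbouring membranes, rose and then fell. Its level ran from 23.5 to 53.4 CPM at 14 weeks (median 30.6), from 44.3 to 109 CPM at 20 weeks (median 77.8) and from 12.7 to 40.7 CPM at 26 weeks (median 26.1). Every library of 20 weeks lay above the median of 14 weeks, with an overlap of the ranges made by replicate 6 of 20 weeks, and above every library of 26 weeks. Irgm2 rose 2.24-fold from 14 to 20 weeks (log2 change 1.17 ± 0.28 SE, edgeR adjusted p = 0.0101) and fell by 1.54 ± 0.28 on the log2 scale from 20 to 26 weeks (edgeR adjusted p = 0.00112). Between 14 and 26 weeks it was not called (-0.37 ± 0.28, edgeR adjusted p = 0.474). Both calls held in all 18 fits that left out 1 library. In a bulk sample, a change in the share of cells that express a gene and a change in RNA per cell cannot be told apart. Irgm2 spans 58199618 to 58222782 on chromosome 11 in GENCODE M21 (GRCm38) and overlaps Igtp there, sharing 162 exonic bases.

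Igtp, whose product belongs to the endoplasmic reticulum, spans 58199556 to 58207591 on chromosome 11. It ran from 31.4 to 61.3 CPM at 14 weeks (median 50.1), 46.3 to 95.5 CPM at 20 weeks (median 70.3) and 21 to 87.6 CPM at 26 weeks (median 48.5). The middle age was highest by median, but all 3 ranges overlap. The change from 14 to 20 weeks was 0.59 ± 0.29 (edgeR adjusted p = 0.229) and that from 20 to 26 weeks -0.55 ± 0.29 (edgeR adjusted p = 0.218), and neither was called. Of the words of 100 bases in Igtp transcripts, 5.16% also occur in Irgm2, and the sources used here do not say how reads common to both were assigned.

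Irgm1, at 48861968 to 48871683 on chromosome 11, encodes the regulator best known for protection against mycobacteria. It ran from 9.61 to 46.8 CPM at 14 weeks (median 37.8), 17.2 to 78 CPM at 20 weeks (median 64.3) and 29.6 to 53.2 CPM at 26 weeks (median 42.5). At 20 weeks 5 of the 6 libraries lay at or above 47.8 CPM, higher than every library of 14 weeks, and replicate 3 was at 17.2 CPM. The rise was not called with all libraries (0.82 ± 0.35, edgeR adjusted p = 0.16) and was called without replicate 3 of 20 weeks (1.00 ± 0.30, edgeR adjusted p = 0.0377). With all libraries, limma-voom with quality weights called it (1.06, adjusted p = 0.0439). From 20 to 26 weeks the change was -0.46 ± 0.35 (edgeR adjusted p = 0.42).

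Ifi47, the effector gene of the set, spans 49076587 to 49096974 on chromosome 11. It ran from 10.3 to 22.9 CPM at 14 weeks (median 18.4), 0 to 58.9 CPM at 20 weeks (median 37.4) and 12.3 to 61 CPM at 26 weeks (median 45.2). Unlike Irgm2, it was higher by median at both later ages, and 5 of 6 libraries of 26 weeks lay above all of 14 weeks. Replicate 3 of 20 weeks had 0 counts, where 3 counts would give 0.287 CPM. With all libraries Ifi47 was not called in any pair of ages (0.93 ± 0.67 from 14 to 20 weeks, edgeR adjusted p = 0.455, and 1.25 ± 0.67 from 14 to 26 weeks, edgeR adjusted p = 0.285). Without that library both were called, at 1.19 ± 0.38 (edgeR adjusted p = 0.0472) and 1.24 ± 0.36 (edgeR adjusted p = 0.0281). Fitted with the 14 and 26 week libraries alone, it was called as well (1.27 ± 0.33, edgeR adjusted p = 0.0178).

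**Figure D2:**
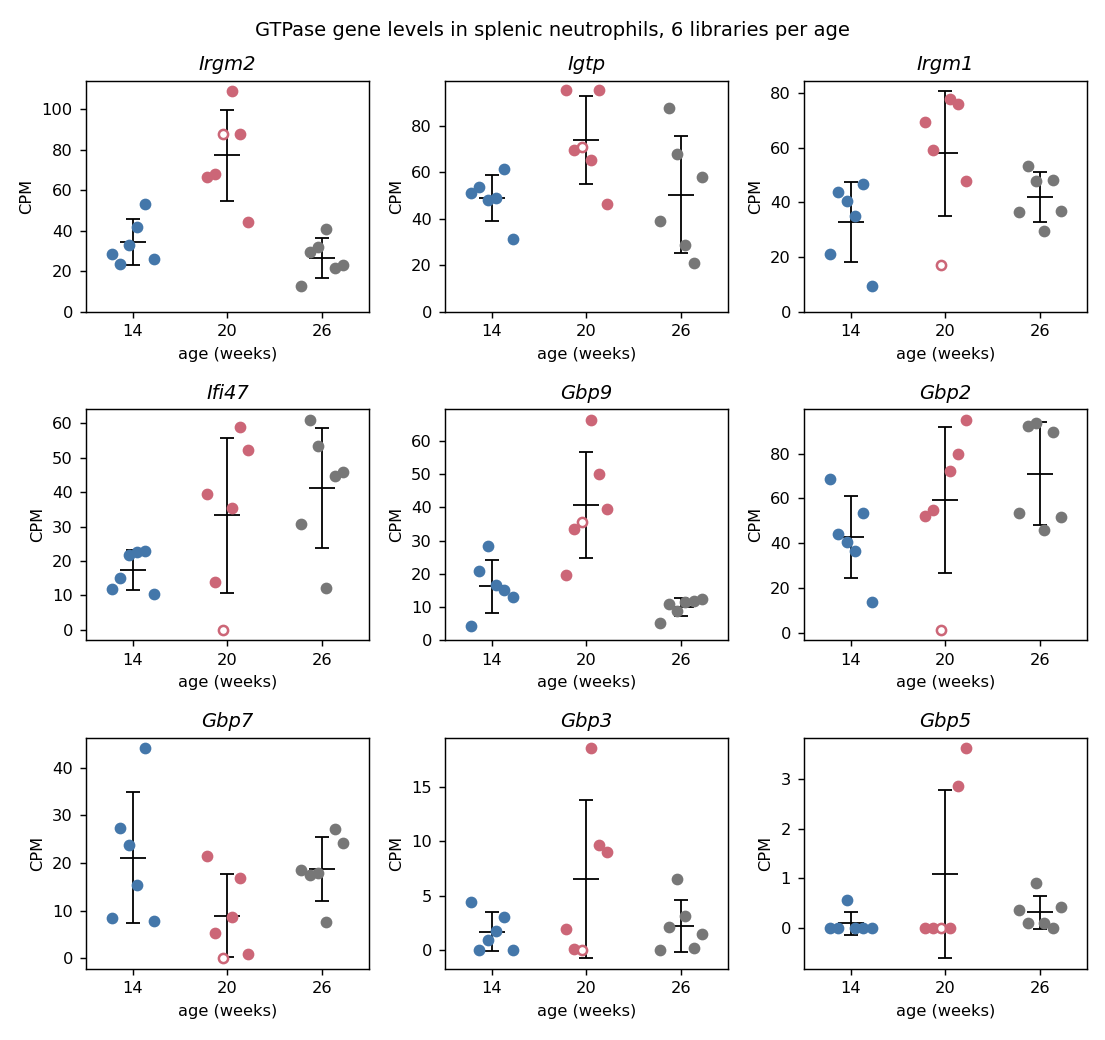
CPM of the 9 genes in each library by age in weeks, with 1 point per library and the mean ± SD of 6 libraries as bars. The open point is replicate 3 of 20 weeks, which lies at 0 or 1.24 CPM for Ifi47, Gbp2, Gbp7, Gbp3 and Gbp5 and inside the range of its age for Irgm2, Igtp and Gbp9.

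Among the GBP genes, Gbp9 rose and then fell. Gbp9 ran from 4.27 to 28.3 CPM at 14 weeks (median 15.7), 19.7 to 66.3 CPM at 20 weeks (median 37.4) and 5.09 to 12.3 CPM at 26 weeks (median 11.2). All 6 libraries of 20 weeks lay above the median of 14 weeks and above every library of 26 weeks. It rose 2.5-fold from 14 to 20 weeks (1.32 ± 0.37, edgeR adjusted p = 0.0269) and fell by 2.01 ± 0.38 on the log2 scale from 20 to 26 weeks (edgeR adjusted p = 0.00144). The rise was no longer called when replicate 4, 5 or 6 of 14 weeks or replicate 4 or 5 of 20 weeks was left out (log2 changes of 1.13 to 1.32, edgeR adjusted p = 0.0508 to 0.0813), while the fall was called in all 18 such fits. From 14 to 26 weeks Gbp9 was not called (-0.69 ± 0.37, edgeR adjusted p = 0.275). The gene spans 105077630 to 105139539 on chromosome 5, where it shares 60 exonic bases each with Gbp4 and Gbp8, and 1.65% of its words of 100 bases occur in other genes.

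Gbp2 was the most abundant GBP member and had no called change. Its levels ran from 13.8 to 68.7 CPM at 14 weeks (median 42.4), 1.24 to 95.1 CPM at 20 weeks (median 63.7) and 45.9 to 93.7 CPM at 26 weeks (median 71.6). Medians went up with age, and the ranges overlap. The log2 change was 0.47 ± 0.53 from 14 to 20 weeks (edgeR adjusted p = 0.678) and 0.73 ± 0.53 from 14 to 26 weeks (edgeR adjusted p = 0.471). Without replicate 3 of 20 weeks, where Gbp2 had 13 counts, these were 0.72 ± 0.31 and 0.73 ± 0.30 (edgeR adjusted p = 0.145 and 0.113). Gbp2 spans 142620602 to 142638008 on chromosome 3 and shared no word of 100 bases with another gene.

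Gbp7 alone of the 8 tested members had a negative estimate from 14 to 20 weeks. It ran from 7.88 to 44 CPM at 14 weeks (median 19.6), 0 to 21.5 CPM at 20 weeks (median 6.97) and 7.67 to 27.2 CPM at 26 weeks (median 18.2). The middle age was lowest, and 5 of its 6 libraries lay below the median of 14 weeks. The log2 change was -1.25 ± 0.75 from 14 to 20 weeks (edgeR adjusted p = 0.354) and 1.08 ± 0.75 from 20 to 26 weeks (edgeR adjusted p = 0.377), so neither was called. Without replicate 3 of 20 weeks, where Gbp7 had 0 counts, these were -0.99 ± 0.57 and 0.81 ± 0.57 (edgeR adjusted p = 0.31 and 0.368). Gbp7 (142530342 to 142550149 on chromosome 3) shares 10% of its words of 100 bases with Gbp3 and Gm43802, which makes its counts less certain.

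Gbp3 and Gbp5 were scarce and uneven. Gbp3 ran from 0 to 4.47 CPM at 14 weeks, 0 to 18.5 CPM at 20 weeks and 0 to 6.52 CPM at 26 weeks, with medians of 1.39, 5.5 and 1.79 CPM. Its largest values were in replicates 4, 5 and 6 of 20 weeks, and its change from 14 to 20 weeks was 1.92 ± 1.37 (edgeR adjusted p = 0.451). Without replicate 3 of 20 weeks, where Gbp3 had 0 counts, that change was 2.18 ± 1.26 (edgeR adjusted p = 0.304). Gbp5 had 7 counts in all at 14 weeks, 65 at 20 weeks and 25 at 26 weeks. Those 65 counts lay in 2 libraries, replicates 5 and 6, and the other 4 had 0. Gbp3 was called in no pair of ages, and Gbp5 was not tested. Gbp3 spans 142560026 to 142573209 and Gbp5 142493978 to 142522344 on chromosome 3.

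Counted over the set, 2 of 8 tested members (Irgm2 and Gbp9) were called higher at 20 than at 14 weeks and 0 lower, where 4.93% of all tested genes were called higher and 5.27% lower. The same 2 were called lower at 26 than at 20 weeks, where 7.98% of all tested genes were called lower, and 0 were called higher, where 8.03% were. Between 14 and 26 weeks 0 of 8 were called by edgeR (0 at an unadjusted p under 0.05, and 0 by DESeq2 or limma-voom), where 11% of all tested genes were called in either direction. Without replicate 3 of 20 weeks, 4 members were higher at 20 than at 14 weeks (5.24% of tested genes), 1 was higher at 26 than at 14 weeks (7.31%) and 2 were lower at 26 than at 20 weeks (8.47%). The median log2 change of the 8 was 0.88 from 14 to 20 weeks, 0.20 from 14 to 26 weeks and -0.50 from 20 to 26 weeks, against -0.02, 0.04 and 0.05 over all tested genes. Members with a positive estimate numbered 7, 5 and 3 of 8, where 48.8%, 52.1% and 52.2% of all tested genes had one. These comparisons share their libraries, so the 20 week values enter both the rise and the fall.

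The ranges of 20 and 26 weeks did not overlap for Irgm2 and Gbp9, and 2.27% of all tested genes were lower at 26 weeks without overlap. Correcting each library for gene length left the same 2 members called from 14 to 20 weeks and added Igtp to those lower from 20 to 26 weeks (-1.01 ± 0.29, edgeR adjusted p = 0.0228). That correction also moved the share of higher genes among all those called, from 48.3% to 73.3% for 20 against 14 weeks and from 50.2% to 26.8% for 26 against 20 weeks. It moved the median change of all genes to 0.18 and -0.18. Upper quartile scaling moved the share for 26 against 14 weeks from 49.6% to 62%.

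**Figure D3:**
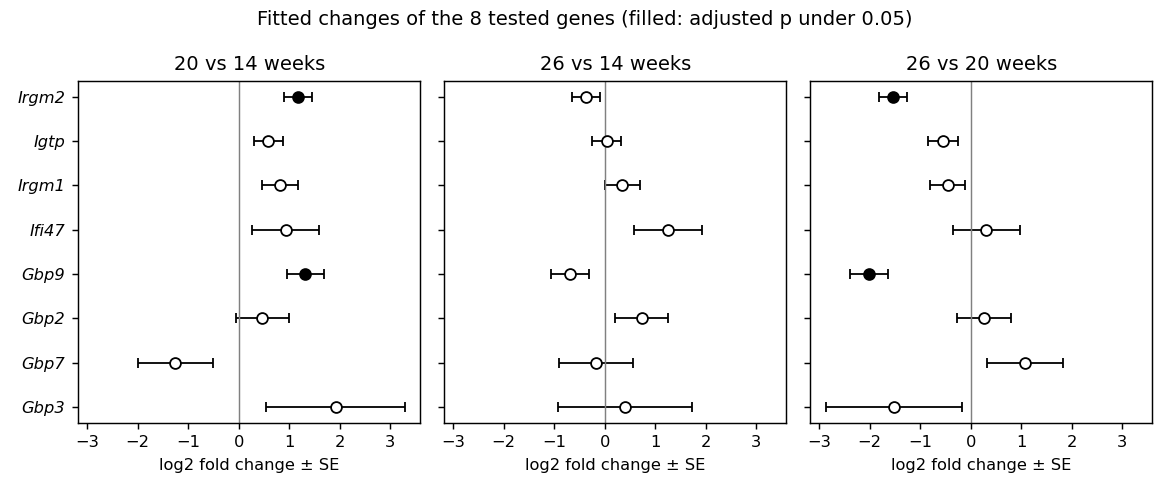
Fitted log2 fold changes ± SE of the 8 tested genes (rows) in the 3 pairs of ages (panels), from 1 fit of 18 libraries, with filled points for adjusted p under 0.05. Irgm2 and Gbp9 are filled on the right of 0 for 20 against 14 weeks (1.17 and 1.32) and on the left for 26 against 20 weeks (-1.54 and -2.01).

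Within an age, the members did not move as 1 block. Over the 28 pairs of tested members, the Pearson correlation of log2 CPM centred within each age ran from -0.113 to 0.93 (median 0.308, 18 libraries), and without replicate 3 of 20 weeks from -0.0681 to 0.714 (median 0.308). These are descriptions, since all values of a library share its depth and scaling. In replicate 3 of 20 weeks, 4 of the 9 members had 0 counts (Gbp3, Gbp5, Gbp7 and Ifi47), and Gbp2 was at 1.24 CPM beside 52 to 95.1 CPM in the other 5 libraries. In the same library Irgm2 was at 87.5, Igtp at 71 and Gbp9 at 35.5 CPM, all inside the range of its age. At 14 weeks replicate 6 was lowest of its age for 6 of the 8 tested members, and replicate 5 was highest for 5 of them.

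**Figure D4:**
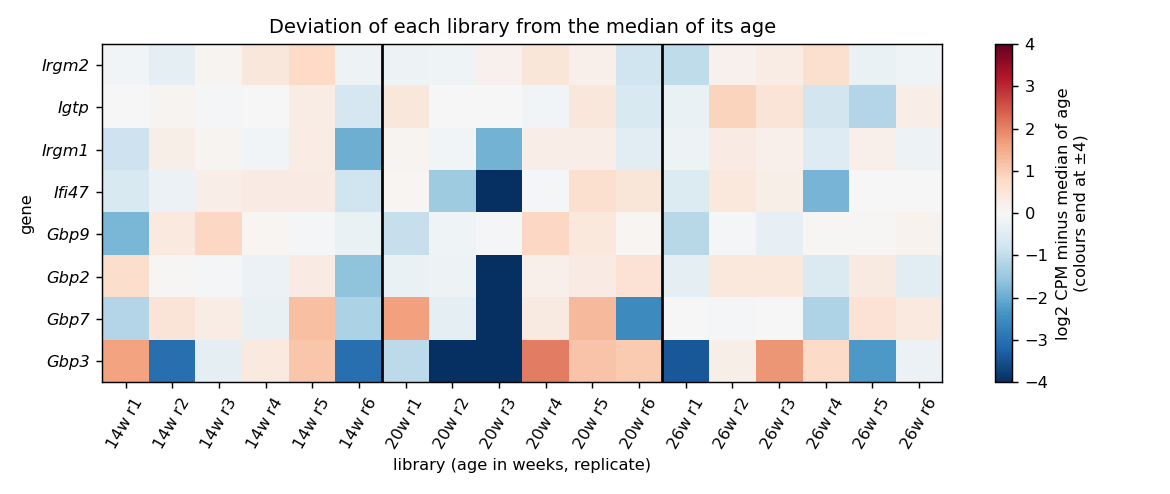
Log2 CPM of the 8 tested genes (rows) in each of the 18 libraries (columns, by age and replicate) minus the median of the age, on a colour scale that ends at ±4. The darkest blue column is replicate 3 of 20 weeks (20w r3), for Ifi47, Gbp2, Gbp7 and Gbp3, while its cells for Irgm2, Igtp and Gbp9 are near 0.

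By the rule used here, the genes outside the set whose centred levels followed the mean of the 8 members most closely over the 18 libraries, among 8901 candidates, were Zfp637 (Pearson r = 0.866), Ric8 (0.846), S1pr2, a receptor for sphingosine 1-phosphate (0.843), Mtg2 (0.834) and Lmna, the lamin A gene (0.829). They were picked as the closest, so r is a measure of likeness and not a test. Without replicate 3 of 20 weeks the same r values were 0.692 to 0.757. Irf1 ranked 132 with r = 0.709, and Ifngr1 2943 with r = 0.293.

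Other GTPase genes of these families, listed with Mx1, Mx2 and Gvin1 of other families, were mostly low. Their response to interferon gamma was not tested. Of 19 listed, 13 had a row and 6 were tested. Of those 6, 1 was higher at 20 than at 14 weeks and 0 were lower (4.93% and 5.27% of all tested genes). The same gene, Irgc1 of the IRG family, was lower again at 26 than at 20 weeks, as were 7.98% of all tested genes. Irgc1 ran from 3.38 to 17 CPM at 14 weeks (median 10.3), 16.9 to 55.6 CPM at 20 weeks (median 41.7) and 6.52 to 21.9 CPM at 26 weeks (median 11.6). It changed by 1.92 ± 0.39 and then by -1.58 ± 0.39 (edgeR adjusted p = 0.00372 and 0.00832). Its estimate for 26 against 14 weeks was 0.34 ± 0.38 (edgeR adjusted p = 0.679). Gm12250, the effector also called Irgb10, had medians of 7.34, 15.8 and 15.7 CPM and was not called (edgeR adjusted p = 0.217 from 14 to 20 weeks). The near-identical effector genes Tgtp1 and Tgtp2 stayed at or below 3.34 and 2.63 CPM in every library.

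The receptor and its signalling chain were looked at next. Ifngr1, the ligand binding chain, ran from 95.5 to 186 CPM at 14 weeks (median 157), 199 to 441 CPM at 20 weeks (median 305) and 88.2 to 230 CPM at 26 weeks (median 157). All 6 libraries of 20 weeks were above all 6 of 14 weeks, as in 2.97% of tested genes. Ifngr1 rose by 1.08 ± 0.22 and then changed by -0.99 ± 0.22 (edgeR adjusted p = 0.00375 and 0.00421), and both calls held in all 18 fits that left out 1 library. Ifngr2, the accessory chain, had medians of 268, 288 and 193 CPM. It fell from 20 to 26 weeks (-0.57 ± 0.12, edgeR adjusted p = 0.00274), and 14 and 20 weeks were not told apart (edgeR adjusted p = 0.496).

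Both kinases were lowest at 26 weeks. Jak1 had medians of 649, 552 and 348 CPM and fell from 20 to 26 weeks (-0.61 ± 0.13, edgeR adjusted p = 0.00298), and Jak2 had medians of 77.5, 67.8 and 28 CPM and fell too (-1.41 ± 0.31, edgeR adjusted p = 0.00435). Both were also lower at 26 than at 14 weeks (edgeR adjusted p = 0.00149 and 0.0143, with that of Jak1 at 0.0554 after the length correction). Irf1 ran from 163 to 247 CPM at 14 weeks, 174 to 449 CPM at 20 weeks and 177 to 356 CPM at 26 weeks. It rose from 14 to 20 weeks (0.78 ± 0.22, edgeR adjusted p = 0.0297), but 6 of 18 refits with a library omitted did not call it (edgeR adjusted p up to 0.0764), nor did the fit with the replicate number as a block (0.0576). Its level in replicate 3 of 20 weeks was 174 CPM, the lowest of that age. Of 12 tested genes of this list, 2 rose and 0 fell from 14 to 20 weeks (4.93% and 5.27% of all tested genes). From 14 to 26 weeks 0 rose and 3 fell, where 11% of all 10104 tested genes changed (551 rose and 560 fell). From 20 to 26 weeks 0 rose and 8 fell (8.03% and 7.98%), with a median change of -0.56. The gene of the ligand, Ifng, was not analysed here.

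**Figure D5:**
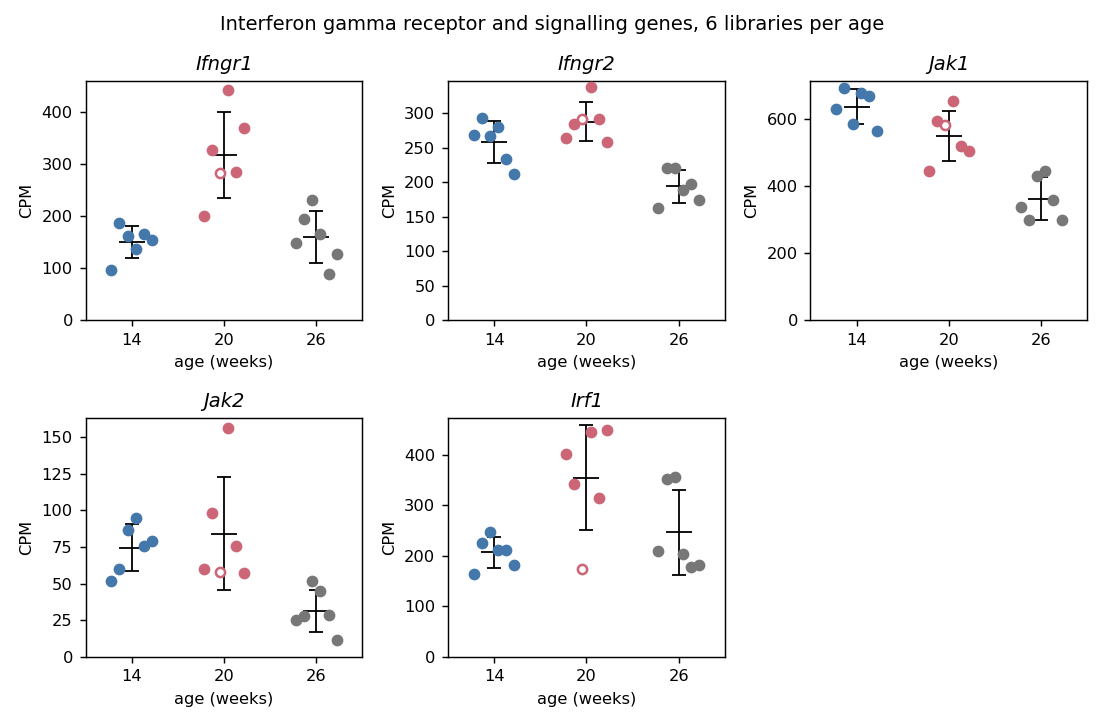
CPM of 5 receptor and signalling genes in each library by age in weeks, with the mean ± SD of 6 libraries as bars and replicate 3 of 20 weeks as an open point. Ifngr1 lies between 199 and 441 CPM at 20 weeks, above every library of 14 weeks, while Jak1 and Jak2 have their lowest medians at 26 weeks (348 and 28 CPM).

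Other interferon gamma targets followed more than 1 course. Of 15 tested, 4 rose and 0 fell from 14 to 20 weeks (4.93% and 5.27% of all tested genes), and 4 rose and 2 fell from 20 to 26 weeks (8.03% and 7.98%). From 14 to 26 weeks 6 rose and 0 fell, where 11% of all 10104 tested genes changed (551 rose and 560 fell). Cd274, the PD-L1 gene, rose and then fell, from 9.22 ± 4.15 CPM (SD, n = 6) to 88.6 ± 24.3 and then 23.6 ± 26.1 CPM (edgeR adjusted p = 0.000687 and 0.0104), as did Tapbp, the tapasin gene, at 0.76 ± 0.18 and -1.05 ± 0.18 (edgeR adjusted p = 0.00958 and 0.000798). Icam1 and Psmb8 also rose from 14 to 20 weeks (3.09 ± 0.59 and 0.67 ± 0.17, edgeR adjusted p = 0.00243 and 0.0162). Neither was called from 20 to 26 weeks (edgeR adjusted p = 0.255 and 0.947). Both were called higher at 26 than at 14 weeks (edgeR adjusted p = 0.0201 and 0.0198), Psmb8 not in 1 of 10 other settings. B2m, the light chain of MHC class I, and Psme2, an activator of the proteasome, were instead called higher at 26 than at 20 weeks (0.87 ± 0.22 and 1.07 ± 0.21, edgeR adjusted p = 0.0105 and 0.00184). Corrected for gene length, those 2 were no longer called (edgeR adjusted p = 0.809 and 0.125). Psme1 and Psmb9, also called higher at 26 than at 20 weeks, were not called in 1 and 2 of 10 other settings. Psmb9 also lost its call in 7 of 18 fits that left out 1 library.

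Type I interferon targets made up a list with 23 tested genes, of which 1 was higher and 2 were lower at 20 than at 14 weeks (4.93% and 5.27% of all tested genes), with a median log2 change of -0.31. From 14 to 26 weeks 1 rose and 4 fell, where 11% of all 10104 tested genes changed (551 rose and 560 fell). From 20 to 26 weeks 3 rose and 2 fell (8.03% and 7.98%). Oasl2 rose by 0.85 ± 0.26 and fell by 0.85 ± 0.26 (edgeR adjusted p = 0.0439 and 0.0315), but of 18 refits with a library omitted 9 did not call the rise and 8 did not call the fall (edgeR adjusted p up to 0.101 and 0.0788), nor did limma-voom (0.0711 and 0.0605). Samd9l fell by 1.77 ± 0.34 from 14 to 20 weeks (edgeR adjusted p = 0.00255). Among 19 partners of the GTPases in autophagy and the inflammasome, 1 rose, Map1lc3b (LC3B), and 1 fell, the oxidase gene Cybb, from 14 to 20 weeks, shares close to those of all tested genes (4.93% and 5.27%). From 14 to 26 weeks 4 rose and 1 fell, where 11% of all 10104 tested genes changed (551 rose and 560 fell). From 20 to 26 weeks 5 rose and 4 fell (8.03% and 7.98% of all tested genes), with a change of Nlrp3 by -1.87 ± 0.34 (edgeR adjusted p = 0.00108). Cyba and Gabarapl2, which rose then, were not called in 1 of 10 other settings each, and Atg7, which fell, was not called in 2. Atg7 also lost that call in 6 of 18 fits that left out 1 library (edgeR adjusted p up to 0.0925).

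Genes that mark other cell types changed with age as well, and their part in these results was not tested. Among genes of monocytes and macrophages, Adgre1 (F4/80) ran from 16.6 to 64.6, from 99.4 to 196 and from 21.8 to 70.1 CPM at the 3 ages, and Csf1r from 72.7 to 295, 259 to 656 and 79.4 to 226 CPM. Adgre1 changed by 1.72 ± 0.34 and then -1.76 ± 0.34 (edgeR adjusted p = 0.00332 and 0.00184), and Csf1r by 1.31 ± 0.33 and then -1.85 ± 0.33 (edgeR adjusted p = 0.014 and 0.00105). The summed list of 9 such genes, most of it Ly6c2 at 14 and 26 weeks, ran from 671 to 847, 604 to 920 and 669 to 1370 CPM. Ly6c2 itself went the other way, falling by 1.66 ± 0.28 on the log2 scale from 14 to 20 weeks (edgeR adjusted p = 0.00102). The defining genes Cx3cr1, Ccr2, C1qa and C1qb had 0 counts at 14 weeks and 54, 55, 2 and 3 counts in all at 20 weeks, and Cx3cr1 and Ccr2 had 22 and 11 at 26 weeks. Summed dendritic cell genes ran from 0.172 to 17.6, 31.4 to 80.2 and 2.51 to 24.7 CPM, most of it Itgax (mean 47.6 CPM at 20 weeks), while Flt3, Xcr1, Clec9a, Siglech and Cd209a had means of 0.418 CPM or less at every age. B cell genes ran from 47.4 to 181, 185 to 1850 and 68.8 to 268 CPM, most of it Ighm, and plasma cell genes from 0 to 13.9, 17.9 to 1710 and 1.98 to 479 CPM. Summed eosinophil genes ran from 5.83 to 20.7, 32.5 to 77 and 8.29 to 35.7 CPM, most of it Siglecf and Ccr3. Prg2 and Il5ra had 8 and 2 counts in all at 14 weeks and 0 at both later ages. T cell genes, most of it Cd3d, ran from 117 to 153, 50 to 102 and 99.4 to 382 CPM, NK cell genes stayed at or below 5.02 CPM, and erythroid genes reached 2.25, 6.49 and 221 CPM. The neutrophil markers moved as well, with 7 of 10 lower and 1 higher from 14 to 20 weeks (5.27% and 4.93% of all tested genes). From 20 to 26 weeks 5 of the 10 were higher and 1 was lower (8.03% and 7.98% of all tested genes). Ly6g of the sorting gate fell and then rose (-1.37 ± 0.30 and 2.56 ± 0.31, edgeR adjusted p = 0.00574 and 9.91e-05).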

How the data were processed

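RNA from sorted neutrophils was read as single ends of 100 nt from Nextera XT libraries made with 1 ng of cDNA, per the labels' protocols. The authors deposited raw counts of reads, 1 row per gene symbol. The submitters' processing notes name Trimmomatic 0.32, STAR 2.4.2a, HTSeq 0.6.1, DESeq2 1.12.3, DESeq and the build GRCm38.p4, while the annotation and strand setting behind the counts are not stated there. Ages and replicate numbers were taken from the sample titles, and no sequencing date or run is given there.

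Counts of all 18 libraries were fitted with edgeR 4.0.16 (R 4.3.3), with TMM scaling, its filter on low counts by age, robust quasi-likelihood and age as the only term, which left 10104 of 17941 genes. A gene was called at a Benjamini-Hochberg adjusted p under 0.05 over all of them. CPM is the count divided by the TMM-scaled library total of the genes kept. Libraries of 1 age differed by more than sampling noise (chi-square per gene 26.1 to 182), so none was taken as a repeat read of another. That value cannot tell separate mice from separate preparations of 1 sample. All were counted as replicates because their titles call them biological replicates. Alternatives were other scalings and filters, fits of the 2 ages alone, the replicate number as a block, a correction for gene length, omission of other cell type genes, limma-voom (limma 3.58.1), DESeq2 1.42.0 and omission of each library. Loci and exon lengths are from GENCODE M21 and promoters from RefSeq. Members and lists were chosen with earlier results of these data known. All members are named, with up to 4 called genes per list and pair of ages by smallest p, genes of the receptor, its kinases and Irf1, and the 5 genes with the highest correlation. A gene of the signalling list is counted with its list but not reported here. Marker genes of other cells were named after their values were seen.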

Additional observations from a re-analysis of the deposited data

Results flagged for a closer look

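Gbp5 at 14 weeks was at 0.57 CPM in replicate 3 (7 counts) and at 0 in the other 5 libraries, which set that library apart from its group. It was the only such case in 27 groups of 6 libraries looked at, and beside 5 values at 0 any value above 0 is set apart.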

How the results depend on the processing

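The number of members called from 14 to 20 weeks was 1 to 4 when 1 library was left out, with 4 without replicate 3 of 20 weeks and 1 without replicates 4, 5 or 6 of 14 weeks or 4 or 5 of 20 weeks. From 14 to 26 weeks it was 0 to 1, and 1 with only those 2 ages fitted, and from 20 to 26 weeks it stayed at 2. Of 669 alternative fits of the members, 651 kept direction and call, 5 lost a call, 6 gained one and 7 changed sign, and the cause was not tested. Sign changes, all uncalled and all from 14 to 26 weeks, were 0.03 for Gbp7 and -0.33 for Igtp with the length correction, and with 1 library left out the ranges were -0.34 to 0.18 for Gbp7, -0.16 to 0.22 for Igtp and -0.27 to 0.98 for Gbp3.

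Genes called numbered 1030 from 14 to 20 weeks (1727 by DESeq2, 702 to 1263 with 1 library left out), 1617 from 20 to 26 weeks (2553 by DESeq2, 1141 to 1911) and 1111 from 14 to 26 weeks (1808 by DESeq2, 2633 by limma-voom, 1710 with only those ages, 496 with the length correction, 652 to 1544). The last count was 652, 733 and 726 without replicates 1, 2 and 6 of 26 weeks. With the replicate number as a block, 2, 0 and 2 members and 962, 946 and 1573 genes were called from 14 to 20, 14 to 26 and 20 to 26 weeks. Correlations of same-numbered libraries ran from -0.0527 to 0.136, with a median of 0.00765 beside -0.000305 for other numbers. Of 18 such correlations 1 was above 0.1, so the numbers were not taken to pair libraries. For 6 of 18 libraries the best correlation was with their own number, and the count that unpaired libraries would give was not worked out. Gbp5 had too few counts to be tested.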

Other observations

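Replicate 3 of 20 weeks, where Gbp3, Gbp5, Gbp7 and Ifi47 had 0 counts, held nearly all counts of 2 other GBP genes of chromosome 5 at that age. Gbp4 was at 19.1 CPM there and at 0 in the other 5 libraries of 20 weeks. Gbp8 was at 19.5 CPM there, at 1.81 CPM in replicate 1 and at 0 in the other 4, and had 0 counts at 14 and 26 weeks. Neither gene had enough counts elsewhere to be tested.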
